A study of Mus musculus with 32 samples.

Results

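Conventional CD4 T cells (Tconv) sorted from the liver were compared with those sorted from the spleen in mice that the labels call control, that is, at steady state. The members are the 6 control Tconv libraries, 3 of liver and 3 of spleen, of 32 libraries in all. The cells were gated as TCRb+CD4+Foxp3- from male C57BL/6 mice of the Foxp3GFP reporter genotype, which every group carries. Other groups used here for reference are 5 liver and 5 spleen Tconv libraries of mice given carbon tetrachloride (CCl4), a hepatotoxin, and 3 liver and 3 spleen libraries of regulatory T cells (Treg, TCRb+CD4+Foxp3+) of control mice. A choline-deficient diet that the protocol also names belongs to none of these samples. Cells were sorted into Trizol, RNA was purified on a Qiagen kit, and cDNA came from the Clontech Ultra Low v4 kit with Nextera XT libraries, a full-length method without molecular identifiers. Whether each library is a different mouse is not stated, so p-values measure the spread between these samples, which may be technical. The labels give no age, and nothing on how each organ was taken apart before the sort, so tissue and that handling cannot be told apart in any of these comparisons.

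Naive CD4 T cells circulate between blood and lymphoid organs. Ccr7 guides them into lymph nodes, and S1pr1, which is driven by the transcription factor Klf2, lets them leave. Antigen-experienced cells lose part of this machinery, gain receptors for inflamed tissue and can stay in organs as resident cells, which in the liver lie largely in the blood sinusoids and depend on receptors such as Cxcr6. The mouse liver is also rich in natural killer T (NKT) cells, whose receptor carries an invariant alpha chain and which can fall into a TCRb+CD4+ gate.

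Depth ranged over 25996377 to 75292019 estimated counts a library in the 6 control Tconv libraries, and libraries of a group differed by far more than counting error. Values are CPM, counts scaled to library size with TMM factors, given in the order of libraries 1, 2 and 3, and fold changes are liver over spleen on a log2 scale. Foxp3, which the gate excludes, stood at 1.23 to 2.96 CPM in liver Tconv and 2.56 to 3.43 CPM in spleen Tconv, and at 909 to 1176 CPM in control Treg. Cd8a stayed under 1 CPM in all 6 libraries. The first principal component of the 6 libraries, with 57.4% of their variance, separated the tissues. Within groups, some libraries stood apart in ways that touch the results. Spleen libraries 2 and 3 had far fewer counts of immediate early genes than spleen library 1, liver library 2 had the highest counts of effector and NKT genes, and liver library 1 the highest of hepatocyte and pancreatic genes.

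Liver Tconv differed from spleen Tconv in a large share of the transcriptome. Genes of effector and resident T cells, inflammatory chemokine receptors, helper cytokines, mitosis and the heat shock response were higher in liver, with few or no members lower. At the same time Klf2, S1pr1, Ccr7 and Il7r, which mark recirculating cells, were also higher in liver, while Tcf7, Foxo1, Cxcr5 and several genes of T cell receptor signalling were lower. Of 17174 genes tested with edgeR's quasi-likelihood test and Benjamini-Hochberg adjustment, 6232 were called at an adjusted p under 0.05, 3055 higher and 3177 lower in liver. The background against which each list is read is therefore 17.8% of all genes called higher and 18.5% called lower (36.3% in all), with a median log2 fold change over all genes of 0.000341. Changes above 2-fold were uneven, at 1800 genes higher and 479 lower. In bulk RNA, fewer cells of a type and less RNA per cell cannot be told apart. Without spleen libraries 2 and 3 the test called 3562 genes, 1607 higher and 1955 lower; the lone spleen library is then assumed to vary like the other groups. Fewer calls in that fit do not by themselves show a smaller difference.

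**Figure D1:**
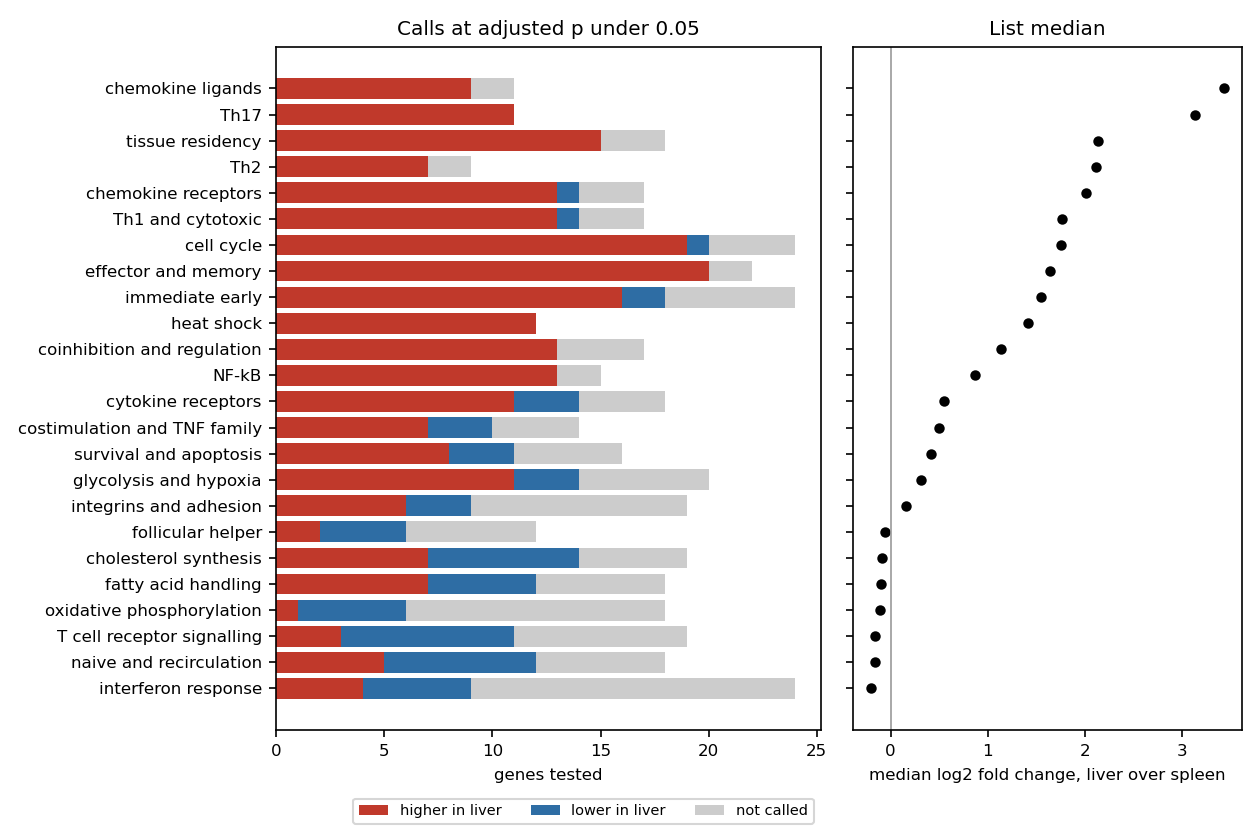
Left, genes of each of the 24 programme lists that were called higher in liver (red), called lower in liver (blue) or not called (grey) in control Tconv, as counts of genes tested. Right, the median log2 fold change (liver over spleen) of each list, which runs from -0.205 for the interferon list to 3.43 for chemokine ligands.

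The recirculation machinery was split. Of 18 genes of naive and recirculating T cells 5 were higher and 7 lower in liver, with a median log2 fold change of -0.16. Klf2 had 1472, 1282 and 1380 CPM in liver Tconv, against 601, 588 and 662 CPM in spleen Tconv (log2 fold change 1.16, SE 0.11, adjusted p = 1.1e-09). Every liver library exceeded every spleen library, as was so for 22% of all genes tested (45.9% had libraries apart in either direction, 23.9% with liver below). Ccr7, a receptor of homeostatic chemokines, had 2649, 2369 and 3109 CPM in liver Tconv, against 1264, 1391 and 1388 CPM in spleen Tconv (log2 fold change 1.01, SE 0.20, adjusted p = 0.000177). S1pr1 ranged over 1576 to 1831 CPM in liver Tconv, against 918 to 1043 CPM in spleen Tconv (log2 fold change 0.82, adjusted p = 1.55e-05). The groups did not overlap for these or for Il7r, the receptor of the survival cytokine IL-7, which stood at 668 to 822 CPM in liver Tconv, against 452 to 478 CPM in spleen Tconv (log2 fold change 0.73, adjusted p = 0.000340). The chromatin organiser Satb1 was the other member called higher (log2 fold change 0.60, adjusted p = 0.00562), a call lost without spleen libraries 2 and 3 (log2 fold change 0.52, adjusted p = 0.159) or liver library 1 (adjusted p = 0.0515).

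In the opposite direction, the transcription factor Tcf7, which maintains naive and memory T cells, had 1730, 1563 and 1746 CPM in liver Tconv, against 2622, 2192 and 2371 CPM in spleen Tconv (log2 fold change -0.51, SE 0.10, adjusted p = 0.000161). Foxo1, which activates Klf2 and Il7r, had 444, 389 and 472 CPM in liver Tconv, against 735, 568 and 607 CPM in spleen Tconv (log2 fold change -0.55, SE 0.09, adjusted p = 1.3e-05). Both were below every spleen library in every liver library. Klf2 and Il7r were higher, while Foxo1 itself was lower. Dapl1 (-1.25), Nsg2 (-0.86), Ly6c1 (-0.77) and Actn1 (-0.60) were also lower. The calls of Actn1 and Ly6c1 were lost without liver library 2 (adjusted p = 0.0693 and 0.0664) or spleen libraries 2 and 3 (0.110 and 0.0515), and that of Ly6c1 without spleen library 1 (0.0598). Lef1, the partner factor of Tcf7, overlapped between the groups and was not called (log2 fold change -0.21, adjusted p = 0.316).

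**Figure D2:**
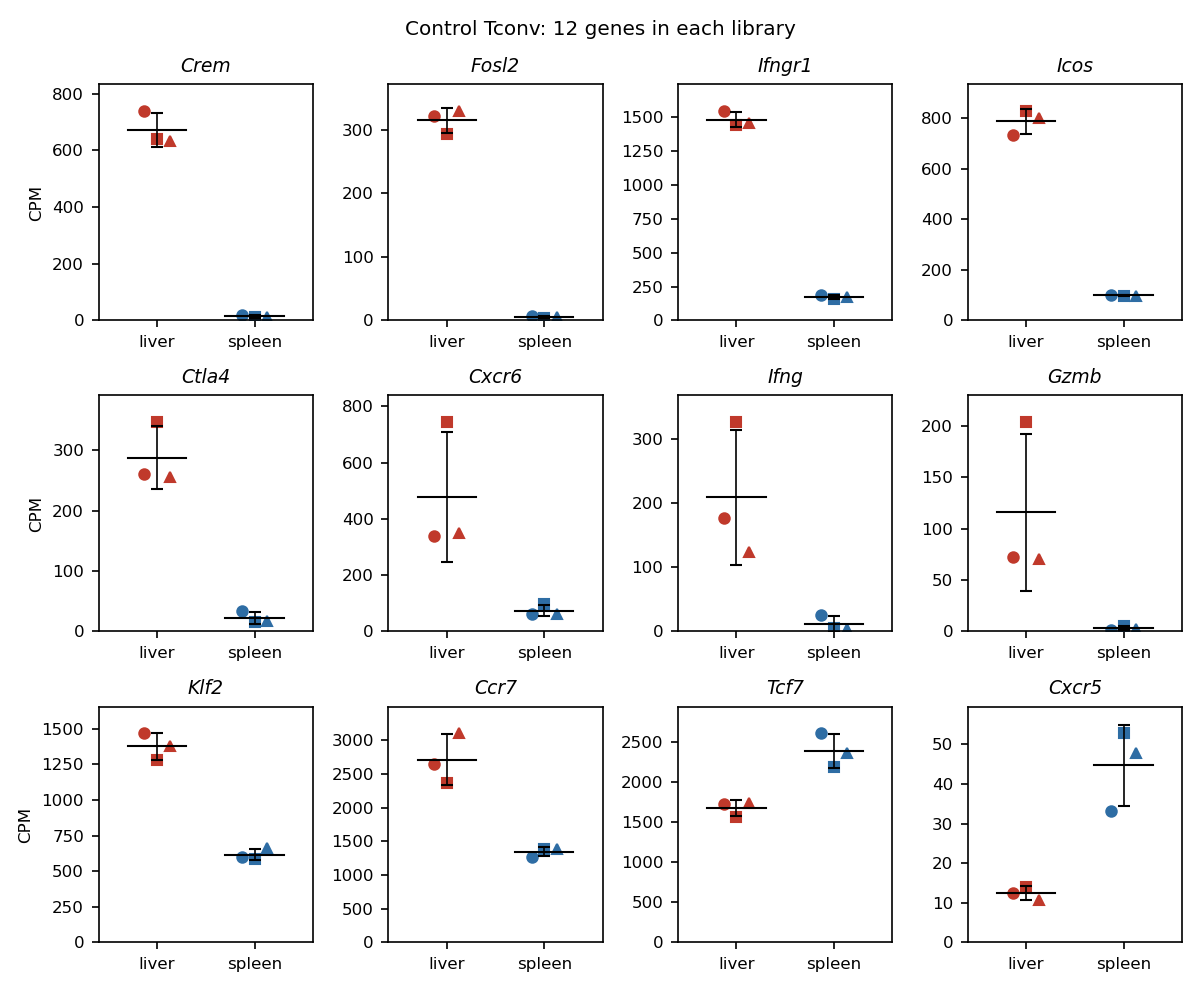
CPM of 12 genes in each control Tconv library (circle, square and triangle for libraries 1, 2 and 3; liver in red, spleen in blue), with the group mean and SD (n = 3). Each axis starts at 0. Liver and spleen libraries do not overlap for any of the 12 genes, and liver library 2 is the highest for Ctla4, Cxcr6, Ifng and Gzmb.

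Effector and memory genes moved together. Of 22 genes 20 were higher in liver and 0 lower, with a median log2 fold change of 1.64. A count of 20 was also found in CCl4 Tconv. Bhlhe40, a transcription factor that promotes inflammatory cytokines in helper T cells, had 879.8, 1424 and 749 CPM in liver Tconv, against 66.7, 28.7 and 22.0 CPM in spleen Tconv (log2 fold change 4.70, SE 0.42, adjusted p = 9.04e-10). Cd44, the classic surface mark of antigen-experienced T cells, had 184, 261 and 183 CPM in liver Tconv, against 73.8, 73.2 and 64.8 CPM in spleen Tconv (log2 fold change 1.57, SE 0.17, adjusted p = 4.17e-08). Il2rb, the shared beta chain of the IL-2 and IL-15 receptors, had 619, 1086 and 771 CPM in liver Tconv, against 201, 206 and 209 CPM in spleen Tconv (log2 fold change 2.01, SE 0.21, adjusted p = 2.15e-08). In each of the 3 genes the groups were apart and liver library 2 was the highest of the 6 libraries. Lgals3 (2.75), Anxa2 (2.00), Il18rap (2.33), Prdm1 (1.72), which encodes Blimp-1, and the inhibitor of DNA binding Id2 (1.00) were also higher, Id2 not so without spleen libraries 2 and 3 (log2 fold change 0.76, adjusted p = 0.0700). Vim and Cd48 were the members not called.

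Genes linked to tissue residency were higher in 15 of 18 cases and lower in 0, with a median log2 fold change of 2.13. Crem, a regulator of cyclic AMP responsive genes, had 739.9, 641 and 632 CPM in liver Tconv, against 19.4, 11.1 and 12.7 CPM in spleen Tconv (log2 fold change 5.53, SE 0.18, adjusted p = 1.44e-19). Fosl2, an AP-1 subunit at chr5:32135801-32157842 on GRCm38, had 322, 294 and 330.3 CPM in liver Tconv, against 7.56, 4.15 and 4.99 CPM in spleen Tconv (log2 fold change 5.80, SE 0.30, adjusted p = 9.81e-15). Odc1, the first enzyme of polyamine synthesis, had 685, 806 and 649 CPM in liver Tconv, against 87.5, 64.9 and 64.6 CPM in spleen Tconv (log2 fold change 3.30, SE 0.19, adjusted p = 9.77e-14). Within each tissue the highest library of each of these 3 genes was less than 2-fold above the lowest. Cxcr6, which retains lymphocytes in liver sinusoids, had 339, 745 and 348 CPM in liver Tconv, against 62.2, 96.0 and 61.1 CPM in spleen Tconv (log2 fold change 2.71, SE 0.38, adjusted p = 1.61e-06). Itga1, the collagen-binding alpha1 integrin, had 25.8, 55.2 and 17.6 CPM in liver Tconv, against 2.45, 2.24 and 1.94 CPM in spleen Tconv (log2 fold change 3.90, SE 0.69, adjusted p = 5.56e-05). Rgs1, which dampens chemokine receptor signals, had 561, 619.6 and 362 CPM in liver Tconv, against 97.2, 18.6 and 12.4 CPM in spleen Tconv (log2 fold change 3.58, SE 0.45, adjusted p = 3.82e-07). Cxcr6 and Itga1 were highest in liver library 2, and Rgs1 was 97.2 CPM in spleen library 1 against at most 18.6 CPM in the other 2. Cd69, the surface antagonist of S1pr1, had 367, 349.8 and 315 CPM in liver Tconv, against 296, 115 and 118 CPM in spleen Tconv (log2 fold change 0.96, SE 0.26, adjusted p = 0.00478). Spleen library 1 lay close below the liver libraries and the other 2 far below, and without spleen libraries 2 and 3 Cd69 was not called (log2 fold change 0.20, adjusted p = 0.672). The residency factor Zfp683 (Hobit) was higher (log2 fold change 2.27, adjusted p = 0.00543), but not without liver library 2 (log2 fold change 1.47, adjusted p = 0.0806), and the aryl hydrocarbon receptor Ahr too (log2 fold change 1.96, adjusted p = 1.28e-10).

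Receptors for inflammatory chemokines were higher in liver. Of 17 chemokine receptor genes 13 were higher and 1 lower, with a median log2 fold change of 2.01. Ccr2 had 109, 209.9 and 115 CPM in liver Tconv, against 20.04, 24.9 and 17.0 CPM in spleen Tconv (log2 fold change 2.82, SE 0.27, adjusted p = 3.1e-09). Ccr8 had 55.7, 56.6 and 47.5 CPM in liver Tconv, against 5.42, 4.72 and 4.33 CPM in spleen Tconv (log2 fold change 3.46, SE 0.28, adjusted p = 1.16e-10). The atypical receptor Ccrl2, which binds chemerin without signalling, had 24.8, 34.0 and 21.2 CPM in liver Tconv, against 2.76, 1.15 and 1.20 CPM in spleen Tconv (log2 fold change 3.91, SE 0.26, adjusted p = 2.02e-12). No library of one tissue reached the range of the other in these 3 genes. Cxcr4 (2.13), Ccr4 (2.01), Ccr6 (1.48), Cxcr3 (1.18) and Gpr183 (0.74), the oxysterol receptor EBI2, were higher as well. Cxcr5, which leads T cells to B cell follicles, was the member that fell, with 12.5, 14.1 and 10.8 CPM in liver Tconv, against 33.3, 52.9 and 47.8 CPM in spleen Tconv (log2 fold change -1.84, SE 0.28, adjusted p = 7.09e-06).

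Of 11 chemokine ligand genes tested 9 were higher and 0 lower, with a median log2 fold change of 3.43. Ccl5 had 140.4, 282 and 140.1 CPM in liver Tconv, against 38.5, 28.8 and 31.1 CPM in spleen Tconv (log2 fold change 2.51, SE 0.41, adjusted p = 1.56e-05). Cxcl10, a ligand of Cxcr3, had 24.99, 53.4 and 19.0 CPM in liver Tconv, against 2.50, 1.26 and 1.69 CPM in spleen Tconv (log2 fold change 4.13, SE 0.41, adjusted p = 6.97e-09). Ccl4 was called but rested on 1 library, with 5.23, 31.97 and 3.04 CPM in liver Tconv, against 3.87, 0.361 and 1.63 CPM in spleen Tconv (log2 fold change 2.75, adjusted p = 0.0150). Without liver library 2 it was not called (log2 fold change 1.03, adjusted p = 0.388), nor without spleen library 2 or 3 (adjusted p = 0.0755 and 0.0581). Cxcl2 had 0.568, 1.32 and 3.20 CPM in liver Tconv, against 0, 0 and 0 CPM in spleen Tconv, and since no spleen library held a count, no fold is given. Integrins and adhesion genes were less one-sided, with 6 higher and 3 lower of 19, and 2 higher and 1 lower without spleen libraries 2 and 3 (median 0.15, and 0.32 without them). Itgb1, the common beta1 chain, rose with 988 to 1518 CPM in liver Tconv, against 427 to 440.4 CPM in spleen Tconv (log2 fold change 1.45, SE 0.16, adjusted p = 5.33e-08). Icam1 also rose, with 162 to 303 CPM in liver Tconv, against 60.6 to 75.1 CPM in spleen Tconv (log2 fold change 1.71, adjusted p = 2.33e-07), and Icam2 fell (log2 fold change -0.53, adjusted p = 0.00122).

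Lineage factors and cytokine genes of Th1, Th2 and Th17 cells were higher in liver Tconv. Of 17 Th1 and cytotoxic genes 13 were higher and 1 lower, with a median log2 fold change of 1.76. Tbx21, which encodes T-bet, had 146, 316 and 139 CPM in liver Tconv, against 38.1, 41.1 and 35.5 CPM in spleen Tconv (log2 fold change 2.39, SE 0.36, adjusted p = 5.69e-06). Ifng had 176, 326 and 124 CPM in liver Tconv, against 24.99, 5.66 and 3.09 CPM in spleen Tconv (log2 fold change 4.19, SE 0.66, adjusted p = 1.1e-05). Gzmb, the granzyme B gene, had 72.7, 204 and 70.4 CPM in liver Tconv, against 1.83, 5.08 and 2.33 CPM in spleen Tconv (log2 fold change 5.32, SE 0.59, adjusted p = 4.53e-08). Each was highest in liver library 2, and for each the groups were apart. Summed NKT-like markers were also highest in that library (513 CPM, against 260 and 333 CPM in liver libraries 1 and 3), and their part in these values was not tested. Without liver library 2 the call held for Tbx21 (log2 fold change 1.89, adjusted p = 0.000113), Ifng (log2 fold change 3.71, adjusted p = 8.5e-05) and Gzmb (log2 fold change 4.62, adjusted p = 2.81e-07). Fasl (2.99), Nkg7 (2.43), Gzma (3.15) and the IL-12 receptor chain Il12rb2 (4.26) were higher too. Eomes, the T-box factor related to Tbx21, fell with 6.17, 4.32 and 7.99 CPM in liver Tconv, against 15.3, 12.8 and 15.1 CPM in spleen Tconv (log2 fold change -1.22, SE 0.48, adjusted p = 0.0482), a call that was lost on leaving out any of 5 of the 6 libraries. Gzmk (log2 fold change 1.17, adjusted p = 0.0733) and Prf1 (log2 fold change -0.42, adjusted p = 0.111) were not called.

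Th2 genes were higher in 7 of 9 cases and lower in 0, with a median of 2.11. Without spleen libraries 2 and 3, 3 were called, and the median was 2.45. Gata3, the lineage factor, differed little, with 166, 182 and 174 CPM in liver Tconv, against 152, 105 and 126 CPM in spleen Tconv (log2 fold change 0.45, SE 0.13, adjusted p = 0.00725), and the call was lost without those libraries (log2 fold change 0.18, adjusted p = 0.491) or without spleen library 2 alone (adjusted p = 0.0770). Areg, the gene of amphiregulin, an epidermal growth factor receptor ligand made by tissue T cells, had 6.74, 12.1 and 7.43 CPM in liver Tconv, against 0.531, 0.108 and 0 CPM in spleen Tconv (log2 fold change 5.21, SE 0.59, adjusted p = 6.45e-08). Il4 had 8.44, 11.3 and 7.02 CPM in liver Tconv, against 0.840, 1.33 and 1.47 CPM in spleen Tconv (log2 fold change 2.87, SE 0.72, adjusted p = 0.00225). Il5 had 8.97, 4.52 and 2.34 CPM in liver Tconv, against 0.137, 0 and 0 CPM in spleen Tconv (log2 fold change 6.52, SE 0.89, adjusted p = 1.34e-06). Every liver library was above every spleen library in the 4 genes, and Il5 had no count in 2 spleen libraries. The call of Il4 was lost without spleen libraries 2 and 3 (log2 fold change 3.39, adjusted p = 0.0502).

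All 11 Th17 genes tested were higher in liver, with a median of 3.13, and 9 of them without spleen libraries 2 and 3. Rora, a nuclear receptor of Th17 cells, had 391, 462 and 349 CPM in liver Tconv, against 45.0, 43.5 and 33.2 CPM in spleen Tconv (log2 fold change 3.31, SE 0.21, adjusted p = 3.55e-13). Il17a had 12.1, 11.6 and 14.7 CPM in liver Tconv, against 0.326, 0 and 0 CPM in spleen Tconv (log2 fold change 6.64, SE 0.82, adjusted p = 2.46e-07). Il17a was near the floor in spleen, with 0 in 2 libraries. Il17f (5.25), Il23r (3.13) and Il22 (4.59) went the same way. Without spleen libraries 2 and 3 the calls of Il22 (log2 fold change 3.17, adjusted p = 0.105) and Il23r (log2 fold change 2.81, adjusted p = 0.0592) were lost.

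Follicular helper genes did not move as a group, with 2 of 12 higher and 4 lower and a median of -0.06. Icos, the costimulator that follicular and effector cells share, had 734, 830.4 and 799.6 CPM in liver Tconv, against 102, 97.0 and 97.8 CPM in spleen Tconv (log2 fold change 3.00, SE 0.12, adjusted p = 1.16e-17). Bcl6 was the other gene higher (log2 fold change 0.75, adjusted p = 0.0101), and this call was lost without spleen libraries 2 and 3 (log2 fold change 0.90, adjusted p = 0.0625) or spleen library 1 (adjusted p = 0.0506). Izumo1r, which encodes folate receptor 4, had 52.5, 51.1 and 55.5 CPM in liver Tconv, against 126, 113 and 114 CPM in spleen Tconv (log2 fold change -1.15, SE 0.18, adjusted p = 1.33e-05). Cd200 fell likewise (log2 fold change -0.87, adjusted p = 3.02e-05), whereas Il21 was not called and overlapped, with 4.50, 28.5 and 3.37 CPM in liver Tconv, against 8.85, 7.61 and 7.78 CPM in spleen Tconv.

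Of 17 genes of coinhibition and regulation, a list of receptors, ligands, enzymes and transcription factors, 13 were higher in liver and 0 lower (median 1.13). Without spleen libraries 2 and 3, 8 were higher and the median was 1.06. Ctla4 had 261, 348 and 256 CPM in liver Tconv, against 33.1, 15.9 and 16.9 CPM in spleen Tconv (log2 fold change 3.71, SE 0.21, adjusted p = 4.08e-14). Tigit had 37.0, 44.2 and 39.5 CPM in liver Tconv, against 4.66, 6.82 and 5.21 CPM in spleen Tconv (log2 fold change 2.88, SE 0.30, adjusted p = 1.27e-08). Entpd1, the ectonucleotidase CD39, had 18.1, 45.8 and 19.7 CPM in liver Tconv, against 3.91, 5.08 and 4.76 CPM in spleen Tconv (log2 fold change 2.62, SE 0.30, adjusted p = 9.62e-08). The 3 liver libraries lay above all spleen libraries each time. Pdcd1, the gene of PD-1, rose less, with 75.6, 119 and 102 CPM in liver Tconv, against 51.7, 47.1 and 55.7 CPM in spleen Tconv (log2 fold change 0.94, SE 0.32, adjusted p = 0.0223), and its call was lost without spleen libraries 2 and 3 (log2 fold change 0.93, adjusted p = 0.202), without liver library 2 or 3 (adjusted p = 0.0924 and 0.0509) and without spleen library 1 or 2 (0.0572 and 0.0756). Cd274 (1.51), Nt5e (1.00), Il2ra (1.75) and Maf (1.14) rose, and Lag3 was not called (log2 fold change -0.61, adjusted p = 0.492).

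Costimulators and members of the tumour necrosis factor family went both ways, with 7 of 14 higher and 3 lower (median 0.49). Tnfrsf4, which encodes OX40, had 135, 183 and 153 CPM in liver Tconv, against 26.8, 23.4 and 23.7 CPM in spleen Tconv (log2 fold change 2.67, SE 0.16, adjusted p = 1.89e-13). Tnfrsf1b, the TNF receptor 2 gene, had 544, 759.8 and 556 CPM in liver Tconv, against 106, 109.7 and 112 CPM in spleen Tconv (log2 fold change 2.50, SE 0.17, adjusted p = 3.08e-12). Tnfsf11, the gene of RANKL, had 71.1, 70.9 and 56.6 CPM in liver Tconv, against 16.9, 14.8 and 11.5 CPM in spleen Tconv (log2 fold change 2.20, SE 0.18, adjusted p = 1.3e-10). Ltb, the lymphotoxin beta gene needed for lymphoid tissue structure, fell with 430.2, 600.4 and 513 CPM in liver Tconv, against 1185, 1188 and 1226 CPM in spleen Tconv (log2 fold change -1.22, SE 0.10, adjusted p = 1.05e-10). Groups were apart for all 4 genes. Cd28 was higher (log2 fold change 1.20, adjusted p = 4.69e-13), and Cd27 (log2 fold change -0.78, adjusted p = 0.000178) and Lta (log2 fold change -0.66, adjusted p = 0.000509) were lower.

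Of 19 genes of T cell receptor signalling 8 were lower in liver and 3 higher (median -0.16), and a fit of the 6 libraries alone called 3 in each direction (median -0.14). Cd4 itself had 738, 845 and 776 CPM in liver Tconv, against 996, 926 and 940.5 CPM in spleen Tconv (log2 fold change -0.28, SE 0.08, adjusted p = 0.00511). Vav1, a guanine exchange factor downstream of the receptor, had 222, 283 and 289 CPM in liver Tconv, against 415, 398 and 342 CPM in spleen Tconv (log2 fold change -0.54, SE 0.09, adjusted p = 1.15e-05). Lck, the kinase bound to Cd4, had 1350, 1961 and 1651 CPM in liver Tconv, against 2213, 2277 and 2075 CPM in spleen Tconv (log2 fold change -0.40, SE 0.09, adjusted p = 0.00121). These falls were small but without overlap. In the 6 libraries alone Cd4 and Lck were not called (adjusted p = 0.0520 and 0.0505), nor was Cd4 with the replicate block there (0.0893). Among those that rose were the inhibitory phosphatase Ptpn22 (log2 fold change 1.11, adjusted p = 1.26e-09) and the ubiquitin ligase Cblb (log2 fold change 1.30, adjusted p = 2.51e-07), also a negative regulator, while Ptprc, the pan-leukocyte CD45 gene, was not called (log2 fold change 0.05).

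Among 18 cytokine receptor and Socs genes 11 were higher and 3 lower (median 0.55). Ifngr1, the ligand-binding chain of the interferon gamma receptor at chr10:19591949-19610229, had 1548, 1440 and 1460 CPM in liver Tconv, against 186, 157 and 172 CPM in spleen Tconv (log2 fold change 3.11, SE 0.10, adjusted p = 1.44e-19). Its partner Ifngr2 had 272, 236 and 296 CPM in liver Tconv, against 77.3, 70.2 and 68.5 CPM in spleen Tconv (log2 fold change 1.90, SE 0.19, adjusted p = 8.16e-09). Il4ra, shared by the IL-4 and IL-13 receptors, had 1200, 1131 and 1161 CPM in liver Tconv, against 492, 441 and 451 CPM in spleen Tconv (log2 fold change 1.33, SE 0.12, adjusted p = 1.32e-09). Within a tissue the libraries differed little in these genes, and the tissues were far apart. The STAT5 target Cish (log2 fold change 2.22, adjusted p = 5.96e-09) and Socs2 (log2 fold change 2.15, adjusted p = 1.29e-06) were higher, and Il6ra (log2 fold change -0.77, adjusted p = 1.5e-05), Il27ra (log2 fold change -0.53, adjusted p = 0.000715) and Ifnar2 (log2 fold change -0.29, adjusted p = 0.00369) lower, Ifnar2 with a value of 0.022 when gene length offsets were used. Ifnar1, the other chain of the type I interferon receptor, was higher (log2 fold change 0.91, adjusted p = 1.9e-08). Interferon-stimulated genes did not follow a direction, with 4 of 24 higher and 5 lower (3 lower without spleen libraries 2 and 3). Isg15 (1.08), Mx1 (1.27) and Rsad2 (1.41) were higher, and Stat2 (-0.69) and Usp18 (-0.90) lower.

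Heat shock genes moved together. All 12 were higher in liver (median log2 fold change 1.41), and 11 without spleen libraries 2 and 3. Hspa1a, an inducible HSP70 family chaperone, had 7075, 5714 and 5416 CPM in liver Tconv, against 50.6, 44.4 and 53.8 CPM in spleen Tconv (log2 fold change 6.93, SE 0.61, adjusted p = 4.87e-10). Hspa1b, a near-identical copy between which reads can be split wrongly, had 9552, 7820 and 7160 CPM in liver Tconv, against 202, 165 and 211 CPM in spleen Tconv (log2 fold change 5.41, SE 0.57, adjusted p = 1.6e-08). The sum of both was 12580 to 16630 CPM in liver Tconv, against 209 to 265 CPM in spleen Tconv. For this pair spleen library 1 lay between the other 2, unlike for Fos and Junb. Summed over the 12 genes, however, it was the highest spleen library, with 6810, 6030 and 4970 CPM in spleen Tconv, against 24800 to 30600 CPM in liver Tconv. The cochaperone Dnajb1 (2.12), Hsph1 (1.82), Hsp90aa1 (1.62), the constitutive Hspa8 (1.06) and the small chaperone Hspb1 (4.34) rose as well. Hspd1 was the member whose call was lost without spleen libraries 2 and 3 (log2 fold change 0.42, adjusted p = 0.119).

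Immediate early genes, which switch on within minutes of a stimulus, depended on the spleen libraries. Of 24 genes 16 were higher and 2 lower in liver (median 1.55), but 6 higher and 1 lower without spleen libraries 2 and 3 (median 0.38). Leaving out spleen library 2 or spleen library 3 alone left 9 higher, and leaving out spleen library 1 gave 21. Fos had 984, 951 and 804 CPM in liver Tconv, against 804, 26.4 and 19.4 CPM in spleen Tconv and was not called (log2 fold change 1.69, SE 0.91, adjusted p = 0.151). Junb had 5693, 5965 and 5345 CPM in liver Tconv, against 5124, 773 and 657 CPM in spleen Tconv (log2 fold change 1.38, SE 0.52, adjusted p = 0.0375). Dusp1, a phosphatase that ends kinase signals, had 1508, 1802 and 1400 CPM in liver Tconv, against 878, 55.2 and 56.2 CPM in spleen Tconv (log2 fold change 2.25, SE 0.72, adjusted p = 0.0149). In each, spleen library 1 lay far nearer to the liver libraries than the other 2 spleen libraries did. The calls of Junb (log2 fold change 0.13, adjusted p = 0.903) and Dusp1 (log2 fold change 0.83, adjusted p = 0.465) were lost without those 2, or without either of them (adjusted p = 0.186 and 0.183 for Junb, 0.0759 and 0.0740 for Dusp1), and in a fit of the 6 libraries alone (0.129 and 0.0841). That of Junb was also lost without any 1 liver library (0.0583 to 0.0743). The same split ran through spleen Treg of control mice, where Fos was 842 CPM in library 1 and 25.1 and 22.6 CPM in libraries 2 and 3, and spleen Tconv of CCl4 mice stood at 711 to 892 CPM.

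A subset of the list was called against spleen library 1 alone as well. Nr4a1, an orphan nuclear receptor induced by T cell receptor signals, had 1567, 2099 and 1525 CPM in liver Tconv, against 415, 67.4 and 77.0 CPM in spleen Tconv (log2 fold change 3.21, SE 0.45, adjusted p = 1.89e-06). Its relative Nr4a2 had 142, 180.3 and 136 CPM in liver Tconv, against 6.03, 1.80 and 3.30 CPM in spleen Tconv (log2 fold change 5.30, SE 0.33, adjusted p = 3.47e-13). Btg2, an antiproliferative gene, had 1321, 1440 and 1043 CPM in liver Tconv, against 456, 392.3 and 401 CPM in spleen Tconv (log2 fold change 1.61, SE 0.14, adjusted p = 6.98e-10). Set against spleen library 1 alone, all 3 remained called (log2 fold changes 2.05, 4.65 and 1.47), as did Nr4a3, Atf3 and Klf6. Myc, the growth factor response gene, fell with 82.2, 75.4 and 77.7 CPM in liver Tconv, against 168, 149.9 and 140.4 CPM in spleen Tconv (log2 fold change -0.96, SE 0.10, adjusted p = 8.19e-09), and remained called against library 1.

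Genes of the NF-kB pathway were higher in 13 of 15 cases and lower in 0 (median 0.87), and 9 were higher without spleen libraries 2 and 3 (median 0.79). Tnfaip3, which encodes the inhibitor A20, had 3282, 3714 and 3080 CPM in liver Tconv, against 707, 104 and 89.9 CPM in spleen Tconv (log2 fold change 3.48, SE 0.55, adjusted p = 1.21e-05). The subunit Rel had 140.1, 128 and 116 CPM in liver Tconv, against 46.6, 28.4 and 30.9 CPM in spleen Tconv (log2 fold change 1.85, SE 0.18, adjusted p = 2.95e-09). Nfkbia, the inhibitor IkBa, had 781, 996 and 852 CPM in liver Tconv, against 688, 317 and 317 CPM in spleen Tconv (log2 fold change 0.99, SE 0.24, adjusted p = 0.00197). Tnfaip3 and Nfkbia again were highest among spleen libraries in library 1. Without spleen libraries 2 and 3 Tnfaip3 remained called (log2 fold change 2.24, adjusted p = 0.00682) and Nfkbia did not (log2 fold change 0.34, adjusted p = 0.451). Rela was not called (log2 fold change 0.14).

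**Figure D3:**
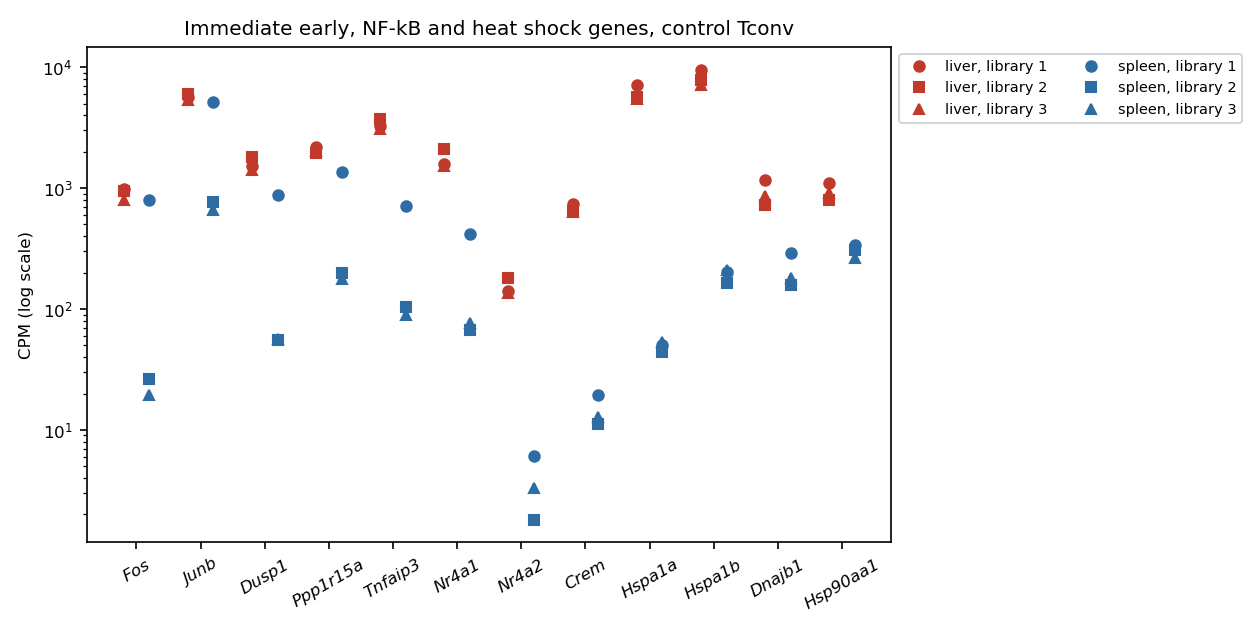
CPM on a log scale of immediate early, NF-kB and heat shock genes in each control Tconv library (liver in red left of spleen in blue; circle, square and triangle for libraries 1, 2 and 3). Spleen library 1 sits near the liver libraries for Fos and Junb, while all spleen libraries lie far below liver for Nr4a2, Crem and Hspa1a.

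Promoter letters of some of these genes are shown because the 3 groups are known targets of heat shock factor, NF-kB and CREB. Windows of 30 bases are from RefSeq promoters on GRCm38.p6, written along the strand of each gene, with the motif in capitals. Hspd1 and Hspe1, the mitochondrial chaperonin pair, are divergent neighbours that share 1 heat shock element on opposite strands. It lies at chr1:55088053-55088082, on the minus strand for Hspd1 (0.67 log2 fold change) and on the plus strand for Hspe1 (1.19). The window of Tnfaip3 is chr10:19015411-19015440, that of Nfkbia chr12:55492657-55492686, that of Dusp1 chr17:26508597-26508626 and that of Btg2 chr1:134079303-134079332, all 4 on the minus strand.
Hspd1: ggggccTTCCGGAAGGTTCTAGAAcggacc
Hspe1: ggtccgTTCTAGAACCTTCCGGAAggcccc
Tnfaip3: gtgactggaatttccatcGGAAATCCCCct
Nfkbia: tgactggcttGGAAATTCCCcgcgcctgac
Dusp1: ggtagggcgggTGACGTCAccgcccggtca
Btg2: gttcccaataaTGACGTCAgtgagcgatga
The heat shock element was searched on both strands as GAA, 2 free bases, TTC, 2 free bases and GAA, and was found in 3 of 9 heat shock genes with a promoter in the table and in 0.6% of 32851 promoters of 300 bases. The kappa B motif, searched as GGG, 2 free bases and TTTCC, was found in 4 of 12 NF-kB genes and in 1.63% of promoters. The cyclic AMP response element TGACGTCA was found in 3 of 20 immediate early genes and in 1.79% of promoters. A gene counted as a match if any of its promoters matched, whereas the percentages are of single promoters, so the 2 are not like for like. Hspd1 and Hspe1 were counted separately for their shared element. Motifs were chosen after the expression values were seen, and a match is a run of letters, not a measured binding site.

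Proliferation genes were higher in liver. Of 24 cell cycle genes 19 were higher and 1 lower (median 1.75), and 18 were higher without spleen libraries 2 and 3. Mki67 had 22.3, 58.9 and 53.2 CPM in liver Tconv, against 7.99, 12.9 and 18.5 CPM in spleen Tconv (log2 fold change 1.78, SE 0.33, adjusted p = 9.4e-05). Top2a, the topoisomerase of dividing cells, had 64.5, 85.9 and 87.0 CPM in liver Tconv, against 22.6, 23.6 and 24.5 CPM in spleen Tconv (log2 fold change 1.75, SE 0.21, adjusted p = 1.41e-07). Ccna2, cyclin A2, had 24.02, 57.1 and 44.6 CPM in liver Tconv, against 8.23, 9.92 and 11.2 CPM in spleen Tconv (log2 fold change 2.10, SE 0.24, adjusted p = 7.27e-08). Liver library 1 was the lowest liver library for all 3 and still above every spleen library. The replication licensing genes Mcm2 (0.09), Mcm3 (0.42) and Mcm6 (0.32) were not called, and cyclin D2, Ccnd2, fell (log2 fold change -0.36, adjusted p = 0.00342), though not without spleen libraries 2 and 3 (log2 fold change -0.29, adjusted p = 0.135).

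Metabolic genes went both ways. Of 20 genes of glycolysis and hypoxia 11 were higher and 3 lower (median 0.32). Hif1a, the hypoxia factor, had 573, 515 and 531 CPM in liver Tconv, against 202, 191 and 186 CPM in spleen Tconv (log2 fold change 1.48, SE 0.13, adjusted p = 2.63e-10). Gapdh rose with 1049 to 1309 CPM in liver Tconv, against 689 to 752 CPM in spleen Tconv (log2 fold change 0.74, adjusted p = 1.1e-06), while the hexokinase Hk1 fell (log2 fold change -0.60, adjusted p = 0.00124) and Hk2 rose (log2 fold change 3.24, adjusted p = 1.65e-05). Oxidative phosphorylation had 1 gene higher and 5 lower of 18 (median -0.11), the falls including the complex II genes Sdha (log2 fold change -0.31, adjusted p = 0.00121) and Sdhb (log2 fold change -0.36, adjusted p = 0.000987), the call of Sdha being lost with the replicate block in the 6 libraries alone (adjusted p = 0.0626). Cholesterol synthesis was balanced at 7 higher and 7 lower of 19, with 4 lower without spleen libraries 2 and 3 (median -0.09, and -0.15 without them), and its regulator Insig1 rose (log2 fold change 1.80, adjusted p = 5.36e-12). Fatty acid handling had 7 higher and 5 lower of 18, with 3 higher without spleen libraries 2 and 3 (median -0.09 either way). Among 16 survival and apoptosis genes 8 were higher (5 without those libraries) and 3 lower, with a median of 0.42, and 0.07 without those libraries. They included pro-death BH3 genes, Pmaip1 (Noxa) with 87.4, 104 and 60.3 CPM in liver Tconv, against 6.12, 3.35 and 3.66 CPM in spleen Tconv (log2 fold change 4.24, SE 0.28, adjusted p = 9.83e-13) and Bcl2l11 (Bim) with 162 to 184 CPM in liver Tconv, against 47.5 to 60.6 CPM in spleen Tconv (log2 fold change 1.61, adjusted p = 8.56e-08).

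Outside the lists, some of the clearest differences were in abundant genes, named after their values were seen. Vps37b, a subunit of the ESCRT-I sorting complex, had 4853, 4206 and 4702 CPM in liver Tconv, against 262, 176 and 189 CPM in spleen Tconv (log2 fold change 4.46, SE 0.16, adjusted p = 1.15e-18). Ramp3, which pairs with calcitonin family receptors, had 394, 333 and 373 CPM in liver Tconv, against 14.6, 14.2 and 12.1 CPM in spleen Tconv (log2 fold change 4.75, SE 0.22, adjusted p = 3.74e-16). Dgat1, an enzyme of triglyceride synthesis, had 461, 446 and 337 CPM in liver Tconv, against 34.8, 35.4 and 33.3 CPM in spleen Tconv (log2 fold change 3.59, SE 0.16, adjusted p = 2.65e-16). The lowest liver library was far above the highest spleen library in all 3, but libraries that do not overlap were a condition of this choice. The cell cycle inhibitor Cdkn1a had 70.2, 81.5 and 59.7 CPM in liver Tconv, against 1.78, 0.865 and 1.49 CPM in spleen Tconv (log2 fold change 5.62, SE 0.42, adjusted p = 2.02e-11). The kinase phosphatase Dusp10 (3.74), the tetrahydrobiopterin enzyme Gch1 (3.52) and the receptor gene Lilr4b (5.76), which is near-identical to Lilrb4a, were higher too.

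The largest falls by the naming rule were led by Slc16a5, a monocarboxylate transporter family gene at chr11:115462474-115474398, with 14.4, 10.2 and 16.3 CPM in liver Tconv, against 141, 119.6 and 117 CPM in spleen Tconv (log2 fold change -3.21, SE 0.35, adjusted p = 3.26e-08). Brat1, a gene of the DNA damage response, had 26.2, 30.6 and 24.99 CPM in liver Tconv, against 85.0, 104 and 97.6 CPM in spleen Tconv (log2 fold change -1.81, SE 0.18, adjusted p = 9.7e-09). Acvrl1, the receptor kinase ALK1, had 22.3, 16.1 and 20.3 CPM in liver Tconv, against 59.2, 72.4 and 74.4 CPM in spleen Tconv (log2 fold change -1.81, SE 0.30, adjusted p = 2.25e-05). The 3 were lower than all spleen libraries in every liver library, as the naming rule requires. Gata1 (-2.44), Pla2g15 (-2.08), Glyctk (-2.08), F2rl3 (-1.92), Lpar5 (-1.91), Zfp14 (-1.86), Angptl2 (-1.85), Mrm2 (-1.77) and Cxcr5 completed the 12, of which Zfp14 lost its call without spleen libraries 2 and 3 (log2 fold change -1.51, adjusted p = 0.0559). Zbtb7b, which encodes the CD4 lineage factor ThPOK, was named after its values were seen and had 24.99, 29.1 and 30.1 CPM in liver Tconv, against 77.7, 73.3 and 78.6 CPM in spleen Tconv (log2 fold change -1.44, SE 0.10, adjusted p = 3.31e-12).

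The 12 largest rises by the same rule were all genes that hepatocytes secrete or use, Alb, Ttr, Fga, Fgb, Fgg, Cyp3a11, Pzp, Mug1, Serpina3k, Serpina1b, Serpina1d and Serpina1e, the last 3 being near-identical copies. All 20 hepatocyte markers were higher in liver, and their sum was 587, 215 and 336 CPM in liver Tconv, against 3.57, 5.81 and 5.08 CPM in spleen Tconv. Alb, the albumin gene, reached at most 60.6 CPM in liver Tconv and 0.289 CPM in spleen Tconv, and Trf, the transferrin gene, had 130.4, 68.7 and 78.8 CPM in liver Tconv, against 2.71, 4.00 and 4.06 CPM in spleen Tconv. Apob, Fgg, Cyp3a11, Ahsg and Hnf4a had no count in any spleen library, so no fold is given. Whether this RNA was free or in sorted cells was not tested. Pancreatic enzyme genes summed to 14.4 to 89.6 CPM in liver Tconv, against 4.83 to 6.64 CPM in spleen Tconv, with 6 of 11 higher, 1 without liver library 1, 1 without spleen libraries 2 and 3 and 2 without any 1 spleen library. Their median was 4.00, and 4.67 without spleen libraries 2 and 3.

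Among lymphocyte markers, all 5 plasma cell genes tested were higher in liver, summing to 352 to 400 CPM in liver Tconv, against 108 to 116 CPM in spleen Tconv. Most of the sum came from Xbp1 (238 to 253 CPM in liver Tconv, against 98.8 to 105 CPM in spleen Tconv) and Irf4 (52.2 to 75.6 CPM in liver Tconv, against 7.06 to 8.65 CPM in spleen Tconv), which activated T cells also express. The others are more specific, and Jchain, the joining chain of secreted antibodies, had 73.3, 44.0 and 45.1 CPM in liver Tconv, against 2.74, 1.73 and 1.06 CPM in spleen Tconv (log2 fold change 4.86, SE 0.81, adjusted p = 2.13e-05). The antibody chain genes Igha and Igkc, outside the lists and named after their values were seen, were higher too. Igha, the IgA heavy chain constant region, had 378, 262 and 227 CPM in liver Tconv, against 5.55, 1.05 and 0.485 CPM in spleen Tconv (log2 fold change 6.85, SE 1.26, adjusted p = 8.35e-05). Igkc, the kappa light chain constant region, had 250, 113 and 116 CPM in liver Tconv, against 6.75, 6.45 and 1.78 CPM in spleen Tconv (log2 fold change 5.02, SE 0.80, adjusted p = 1.25e-05). All liver libraries lay far above all spleen libraries for these 3 genes, with library 1 the highest in liver.

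B cell genes had 1 higher and 2 lower of 14, with 0 to 4 higher on leaving out 1 library (4 without spleen library 1, and 0 without liver library 1 or 3 or spleen library 2 or 3), and Ighm at 466, 479.9 and 526 CPM in liver Tconv, against 890.4, 983 and 925 CPM in spleen Tconv (log2 fold change -0.93, SE 0.15, adjusted p = 1.14e-05). CD8 T cell genes had 0 higher and 1 lower of 2, the lower one being Cd8b1 (log2 fold change -0.72, adjusted p = 0.00383). Myeloid and Kupffer genes had 4 higher and 1 lower of 16, and 1 higher and 0 lower without spleen libraries 2 and 3, or 2 higher without liver library 3 or spleen library 2. Endothelial genes had 7 of 10 higher, and 5 without liver library 2 or spleen library 1 or 2. Their sum was not higher in liver, at 236 to 273 CPM in liver Tconv, against 243 to 301 CPM in spleen Tconv. Tek and Emcn had no count in any spleen library. The endothelial median was 2.89, and 4.88 without spleen libraries 2 and 3. Dendritic genes had 5 of 11 higher (median 0.91), and 3 without those libraries (median 0.73). Stellate and fibroblast genes had 2 of 10 higher (median 0.64), and 0 without them (median 1.62), neutrophil genes 1 of 10 and cholangiocyte genes 1 of 5. None of 7 erythroid genes was called by edgeR, though 4 were without spleen library 2, and none of 4 platelet genes was. What part such cells have in the other differences was not tested.

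NKT-like genes, which NK and effector T cells also express, were higher in 11 of 16 cases and lower in 0, and summed to 260, 513 and 333 CPM in liver Tconv, against 86.5, 93.3 and 84.0 CPM in spleen Tconv. Zbtb16, the NKT lineage factor PLZF, had 15.1, 36.3 and 23.8 CPM in liver Tconv, against 3.55, 4.36 and 3.43 CPM in spleen Tconv (log2 fold change 2.73, SE 0.73, adjusted p = 0.00386). Klrb1c, the gene of NK1.1, had 6.25, 10.1 and 7.92 CPM in liver Tconv, against 0.926, 0.613 and 1.22 CPM in spleen Tconv (log2 fold change 3.12, SE 0.64, adjusted p = 0.000292). Klrk1, the gene of NKG2D, had 38.1, 86.7 and 43.8 CPM in liver Tconv, against 5.02, 6.63 and 3.66 CPM in spleen Tconv (log2 fold change 3.47, SE 0.51, adjusted p = 3.76e-06). Liver library 2 was the highest each time, and without spleen libraries 2 and 3 the call of Zbtb16 was lost (log2 fold change 2.81, adjusted p = 0.105). NK and innate lymphoid genes had 3 of 5 higher, and MAIT and gamma delta genes 1 of 7, the receptor segment Trgv2 (log2 fold change 3.06, adjusted p = 1.2e-05). Ly49 and NKR-P1 genes of these lists have close copies, so single members are uncertain.

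The invariant alpha chain of NKT cells joins the segments Trav11 and Traj18. Trav11 made up 4.86%, 12.7% and 5.83% of the counts of 108 alpha variable segments in liver Tconv, against 0.935%, 1.27% and 1.1% in spleen Tconv (95% Clopper-Pearson intervals for counting error only, 4.43% to 5.32%, 12.3% to 13.1% and 5.51% to 6.15%, against 0.827% to 1.05%, 1.09% to 1.49% and 0.974% to 1.23%). Every liver library was above every spleen library. The shares averaged 7.8 ± 4.28% in liver and 1.1 ± 0.17% in spleen (SD, n = 3 each), and the two-sided exact permutation test gave p = 0.1, the smallest that 20 splits allow. In CPM, Trav11 was called (log2 fold change 2.47, SE 0.77, adjusted p = 0.0119), but not without spleen libraries 2 and 3 (log2 fold change 2.63, adjusted p = 0.153) or without liver library 2 (log2 fold change 1.96, adjusted p = 0.0724). Traj18 overlapped between the groups (log2 fold change 0.40, adjusted p = 0.267). In the list of 7 invariant receptor segments tested, 1 was higher (Trav11) and 1 lower (Trbv1, log2 fold change -0.69, adjusted p = 0.00154). In liver Tconv of CCl4 mice the Trav11 share was 0.976% to 1.75%, against 1.01% to 1.74% in spleen Tconv of CCl4 mice.

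**Figure D4:**
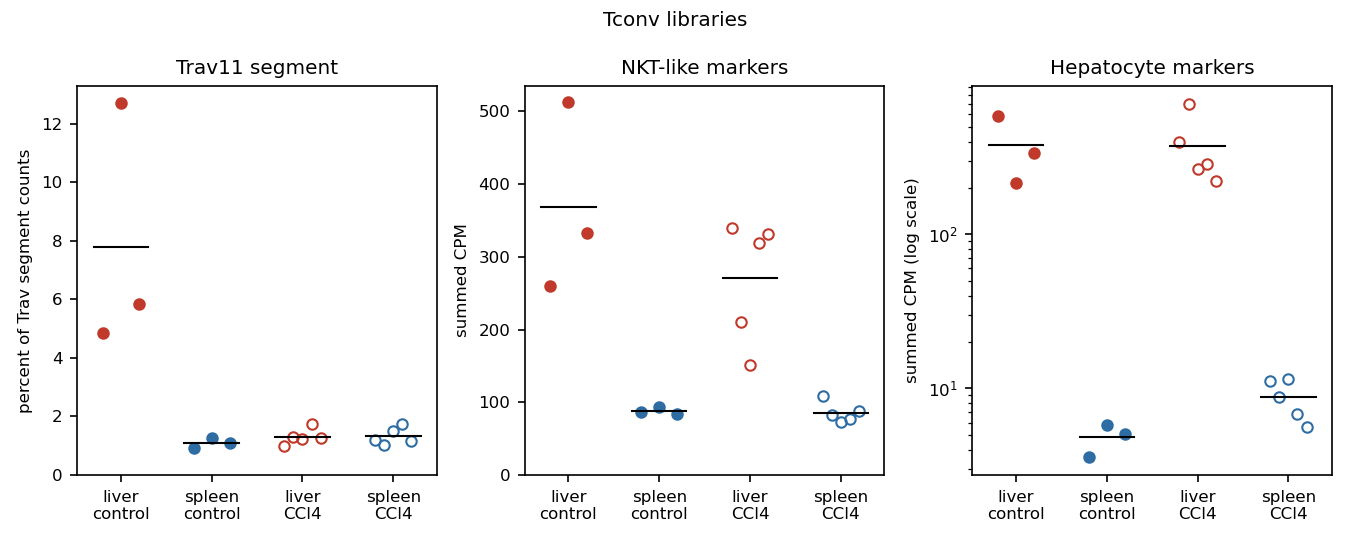
Share of Trav11 among alpha variable segment counts (left, percent), summed CPM of NKT-like markers (middle) and summed CPM of hepatocyte markers (right, log scale) in Tconv libraries of control mice (filled) and CCl4 mice (open), liver in red and spleen in blue, with group means as lines. The Trav11 share reaches 4.86% to 12.7% in control liver and at most 1.75% in the other groups, while hepatocyte markers are high in both liver groups.

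The tissue difference of control Tconv was set against that of CCl4 Tconv, which shares no library with it. In CCl4 Tconv 8321 genes were called (48.5% of those tested, 23.6% higher and 24.9% lower), and 2424 genes were higher in liver in both, 79.3% of the control and 59.8% of the CCl4 calls. A further 2725 were lower in both (85.8% of the control and 63.8% of the CCl4 calls), and 6 were called in opposite directions. The test of the difference itself called 15 genes (0.0873% of those tested), 10 more positive in control (0.0582%) and 5 more negative (0.0291%), with 1741 at an unadjusted p under 0.05. Klrb1c was among them, with a log2 fold change of 3.12 in control and -0.70 in CCl4 Tconv (difference 3.83, SE 0.78, adjusted p = 0.0399). Jchain stood at 4.86 in control and 0.32 in CCl4 Tconv (difference 4.54, SE 0.93, adjusted p = 0.0399). Levels moved in both tissues. Jchain was 44.0 to 73.3 CPM in control and 4.50 to 19.6 CPM in CCl4 liver Tconv. In spleen Tconv it was 1.06 to 2.74 CPM in control and 0.936 to 18.6 CPM after CCl4. Klrb1c was 6.25 to 10.1 CPM in control and 1.17 to 3.00 CPM in CCl4 liver Tconv, against 0.613 to 1.22 CPM and 1.53 to 4.62 CPM in spleen Tconv. Ccrl2 differed too, at 3.91 in control and 2.23 in CCl4 Tconv (difference 1.68, SE 0.31, adjusted p = 0.0276). Zbtb16, given here without a test, was 15.05 to 36.3 CPM in control liver Tconv, against 3.43 to 4.36 CPM in spleen Tconv. After CCl4 the tissues overlapped, at 2.36 to 6.96 CPM in liver Tconv and 1.71 to 3.92 CPM in spleen Tconv. That count of 15 changed with single libraries, at 8, 5 and 3 without liver libraries 1, 2 and 3, and 220, 2 and 0 without spleen libraries 1, 2 and 3.

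**Figure D5:**
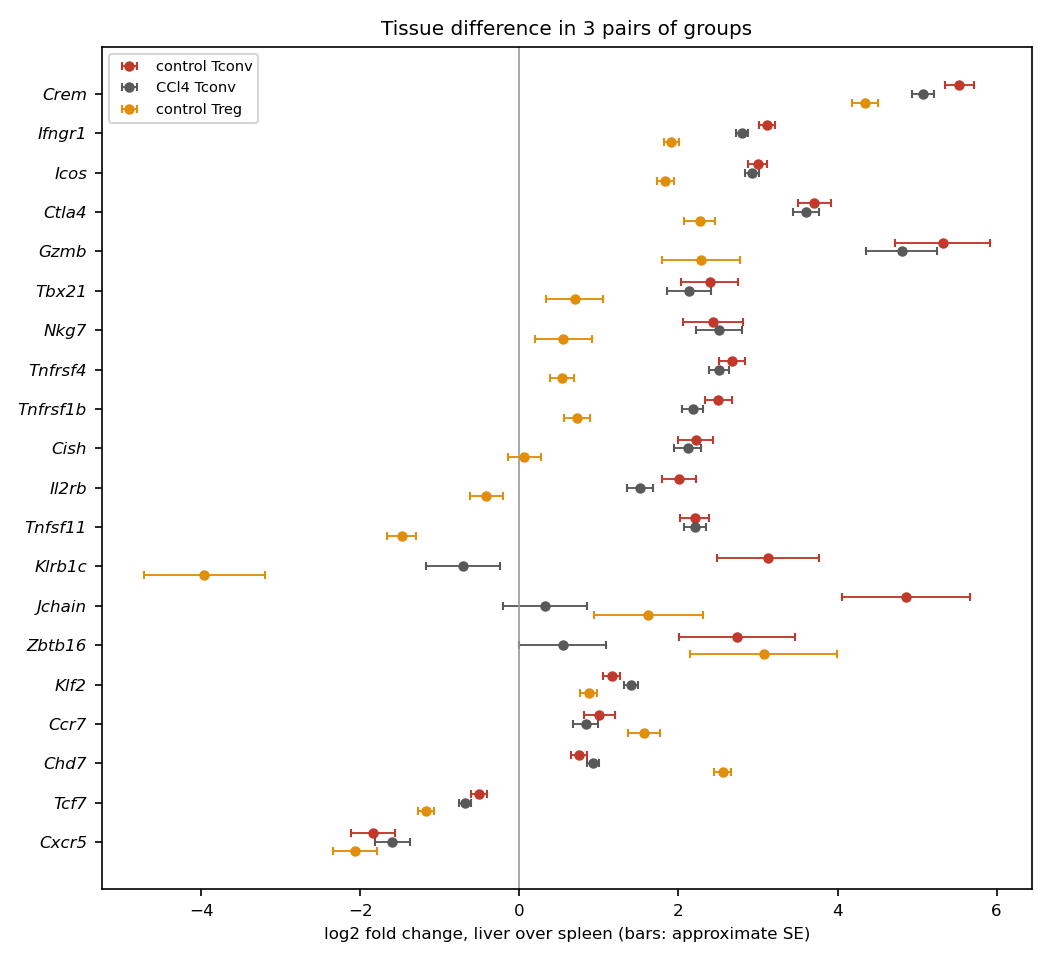
Log2 fold change (liver over spleen) of 20 genes in control Tconv (red), CCl4 Tconv (grey) and control Treg (orange), with the approximate SE as bars. Control and CCl4 Tconv lie close for most genes shown, whereas Klrb1c and Jchain are near 0 or below after CCl4. Zbtb16 is also smaller after CCl4 than in control, and Tnfsf11 is positive in Tconv and negative in Treg.

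Against the tissue difference of control Treg, which also shares no library, the test called 1120 genes (6.52% of those tested), 794 with a more positive value in Tconv (4.62%) and 326 with a more negative one (1.9%), against 7144 genes called in Treg itself (41.6%, with 18.8% higher and 22.8% lower). The count was 657 and 656 without spleen Tconv library 2 or 3, and 249 without both. Spleen Treg libraries 2 and 3 were low in Fos like those of spleen Tconv (25.1 and 22.6 CPM, against 842 CPM in library 1). What this shared split adds to the overlap of calls was not tested. Higher in liver in both cell types were 1856 genes, 60.8% of the Tconv and 57.6% of the Treg calls. Lower in both were 2332, 73.4% of the Tconv and 59.5% of the Treg calls, and 79 were called in opposite directions. Tnfsf11 was one of these, with a log2 fold change of 2.20 in Tconv and -1.48 in Treg (difference 3.68, SE 0.25, adjusted p = 1.69e-10). Tnfrsf4 had 2.67 in Tconv and 0.54 in Treg (difference 2.14, SE 0.22, adjusted p = 3.27e-07). Bcl2a1b, a survival gene with near-identical copies, had 2.25 in Tconv and 0.02 in Treg (difference 2.23, SE 0.20, adjusted p = 4.34e-08). For these genes the Tconv difference was the more positive one.

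The Tconv difference was also the larger for Ctla4 (difference 1.44, SE 0.27, adjusted p = 0.00112), Icos (difference 1.16, SE 0.15, adjusted p = 1.88e-05), Ifngr1 (difference 1.20, SE 0.13, adjusted p = 1.39e-06), Tbx21 (difference 1.70, SE 0.50, adjusted p = 0.0372), Gzmb (difference 3.04, SE 0.72, adjusted p = 0.0101) and Il2rb (difference 2.43, SE 0.30, adjusted p = 5.92e-06). In control Treg, levels of Ctla4 were 2137 to 2339 CPM in liver and 409 to 549.5 CPM in spleen. Chd7, a chromatin remodeller, went the other way, with 0.75 in Tconv and 2.55 in Treg (difference -1.80, SE 0.14, adjusted p = 1.34e-09), as did Tent5a, with -0.06 in Tconv, not called, and 2.72 in Treg (difference -2.78, SE 0.22, adjusted p = 2.09e-09). Tcf7 had -0.51 in Tconv and -1.17 in Treg, a smaller fall in Tconv (difference 0.66, SE 0.14, adjusted p = 0.00410). For the heat shock pair the difference between cell types was not called, for Hspa1a (difference -0.88, SE 0.67, adjusted p = 0.526) or for Hspa1b (difference -0.54, SE 0.67, adjusted p = 0.738).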

How the data were processed

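The submitters' processing notes name bcl2fastq 2.19, kallisto 0.44.0, the build GRCm38.p6 and, without a version, DESeq2. No source used here gives the annotation release or the strand setting, so overlapping and antisense genes are uncertain. Each deposited table gives, per the file headers, the estimated count and the TPM of 118489 transcripts, which the authors obtained from kallisto, with transcript lengths.

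Estimated counts were summed to 36047 genes by transcript identifier (GENCODE M21; 98.6% matched, 1673 unmatched transcripts left out) and rounded. edgeR 4.0.16 in R 4.3.3 kept 17174 genes by filterByExpr, scaled by TMM and fitted 8 groups over 32 libraries (24 residual degrees of freedom, common biological coefficient of variation 0.285). The contrast was liver minus spleen control Tconv. Interactions set it against the tissue difference of CCl4 Tconv and of control Treg. P-values were adjusted by Benjamini-Hochberg across the genes tested and called under 0.05. SE is the absolute log2 fold change over the square root of F. Total depth was 25996377 to 75292019; intervals cover counting error only, as no molecular identifiers were used.

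Members, 24 programme lists, 17 marker lists and tests were chosen with earlier results of these data known, and lists share genes. Named genes are the 12 largest rises and falls (mean of at least 5 CPM, libraries apart, without predicted genes, pseudogenes, ribosomal or mitochondrial genes and receptor segments), up to 4 list members of smallest adjusted p, a set of T cell genes and the top 5 of each interaction. Some named genes are not reported here. Further list members and abundant genes (called, libraries apart, a mean of at least 50 CPM in either tissue) were named after their values were seen. Alternatives were DESeq2 size factors, no filter, a mean of at least 5 CPM, the 6 or 16 Tconv libraries alone, length offsets, limma-voom 3.58.1, DESeq2 1.42.0, a replicate block, deposited TPM for the Trav11 share, and leaving out libraries. The steps were tested on simulated data. Figures used Python 3.11.15 and matplotlib 3.10.9.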

Additional observations from a re-analysis of the deposited data

Results flagged for a closer look

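The tissue difference of control Tconv differed from that of CCl4 Tconv in 15 genes by a test of the difference itself (liver minus spleen in control, minus the same in CCl4), a count that was 0 to 220 on leaving out 1 library. Among the genes named, the log2 differences were 0.41 for Ywhaz, 0.57 for Isca1, 0.80 for Srsf6, 1.68 for Ccrl2, 3.83 for Klrb1c and 4.54 for Jchain. The histone genes Hist1h1e and Hist1h4n had log2 differences of -1.57 and -1.53, with tissue differences of 0.56 and 0.52 in control and 2.13 and 2.05 in CCl4 Tconv; the call of Hist1h1e in control was lost under several alternatives (adjusted p = 0.241 without spleen library 1). Srsf6, a splicing factor gene, was not called in control Tconv (log2 fold change 0.06) and had -0.73 in CCl4 Tconv.

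The tissue difference of control Tconv differed from that of control Treg in 1120 genes. Positive log2 differences were found for Tnfsf11 (3.68), Klrb1c (7.08), Il4 (4.03), Gzmb (3.04), Bcl2a1b (2.23), Tnfrsf4 (2.14), Rgs1 (2.12), Nkg7 (1.88), Tbx21 (1.70), Ctla4 (1.44) and Tcf7 (0.66). The value of Klrb1c rests in part on counts near the floor. In control Treg it had 0.101, 0 and 0.168 CPM in liver, against 1.015 to 1.917 CPM in spleen. Negative ones were found for Tent5a (-2.78), Chd7 (-1.80) and Id2 (-1.21).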

How the results depend on the processing

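The count of called genes stayed within 4768 to 6557 in all alternatives but 1, and within 5106 to 5687 on leaving out 1 library. The number of genes tested differed between alternatives, so the share called was less stable than the count. At a mean of at least 5 CPM 4768 of 9656 genes were called, and without a filter 5634 of 26265, against 6232 of 17174 as reported. Without spleen libraries 2 and 3 it was 3562 (1607 higher, 1955 lower). DESeq2 size factors moved the share of calls that were higher to 54.2% from edgeR and 53.8% from DESeq2, against 49% with TMM. The count of genes whose tissue difference differed between control and CCl4 Tconv was 15 and least stable. It was 1 with the 16 Tconv libraries alone, 23 with length offsets, 58 with the replicate block, 157 in DESeq2, 4 without spleen libraries 2 and 3, and 0 to 220 on leaving out 1 library. The count against control Treg, 1120, was 249 without spleen libraries 2 and 3 and had a low of 656 and a high of 1168 on leaving out 1 library. The difference in Trav11 share, 6.7 percentage points, was 8.14 from deposited TPM and 4.24 to 8.17 on leaving out 1 library. Of 187 named genes called, 23 lost the call without spleen libraries 2 and 3, and 0 to 8 under each other alternative, with Ifnar2 reversed as given next.

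Values that changed sign were those of Ifnar2 (0.022) and Ptprc (-0.14) with length offsets, Il21 (-0.11 with the replicate block in the 6 libraries alone, -1.05 to 1.04 on leaving out 1 library), Tent5a (0.035 at a mean of at least 5 CPM, 0.29 without spleen libraries 2 and 3, -0.22 to 0.036 on leaving out 1 library), Srsf6 (-0.34 without spleen libraries 2 and 3, -0.058 to 0.31 on leaving out 1 library), Vim (-0.18 to 0.21 on leaving out 1 library) and Cd8a (-0.0091 with limma-voom, -0.34 without spleen libraries 2 and 3, -0.18 to 0.47 on leaving out 1 library). Of these only Ifnar2 was called. The cause was not tested.

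Sample numbers were treated as not pairing the tissues, since the labels tie no number to a mouse or day and correlations of same-numbered libraries were under 0.1 (0.0831, 0.0948 and 0.0981 over 9876 genes). Those of different numbers were -0.0545 to -0.0397, so each library correlated best with its own number, a hint from the data and not from the design. The replicate block called 6360 genes in the fit of 8 groups and 5167 in the 6 libraries alone, against 5218 there without it. Depth limits scarce genes such as Il5, Il22 and Areg, which had no count in 1 or more spleen libraries.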
